A study of Bos taurus with 50 samples.

Results

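The comparison described here asked whether the endometrium of dairy cows that had not resumed cycling by week 5 postpartum changed differently, from week 5 to week 9, from the endometrium of cows that were already cycling at week 5. It was measured as a difference of changes: the log2 change from week 5 to week 9 in the non-cycling cows minus the log2 change over the same weeks in the cycling cows. The members were chosen by their labels alone, and 43 of the 50 libraries of the series belong to it: 12 libraries at week 5 and 11 at week 9 from cows not cycling at week 5 (NoCycW5), and 10 libraries at week 5 and 10 at week 9 from cows cycling and under progesterone (P4) at week 5 (CycW5). Cows cycling without P4 at week 5 (CycNoP4) gave the remaining libraries (4 at the first biopsy and 3 at the second), which entered no main comparison. All animals were lactating first-parity cows of Holstein and Jersey breeding. The CycW5 cows had a corpus luteum and circulating P4 at the week 5 biopsy, whereas the NoCycW5 cows had follicles, no corpus luteum and no detectable P4. By the study's methods, every cow of both groups had its ovulation synchronized with GnRH, a P4 insert and prostaglandin F2α before week 9, so that the second biopsy fell in the luteal phase. The labels do not link libraries to cows, so week 5 and week 9 libraries were treated as unrelated and the p-values measure the spread between libraries.

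The endometrium lines the uterus and consists of a luminal and glandular epithelium on a vascular stroma. Estradiol from the follicle and P4 from the corpus luteum set its state in each estrous cycle: under P4 the epithelium takes up nutrients and secretes them into the lumen, and at the end of the luteal phase oxytocin acts on the epithelium to release prostaglandin F2α, which ends the life of the corpus luteum. After calving the tissue is rebuilt, and the first ovulations return it to the influence of P4.

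A positive difference means that a gene increased more, or decreased less, from week 5 to week 9 in the NoCycW5 cows than in the CycW5 cows. Values are given as the fitted log2 difference ± its standard error, and abundance as TMM-normalized CPM, the counts of a gene scaled to a common library size. Genes with a Benjamini-Hochberg adjusted P (BH P) of 0.05 or less in edgeR's quasi-likelihood test over all 15483 genes tested were called. CPM compares libraries for 1 gene and not the levels of different genes, because it is not corrected for gene length. Reads counted on genes numbered 21592867 to 32813237 per library (median 27491318).

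The difference of changes was called for 1210 of the 15483 genes (7.82%), of which 772 were positive (4.99%) and 438 were negative (2.83%). It was at least 2-fold for 683 of them, 526 positive and 157 negative. Among called genes the positive differences were therefore larger as well as more frequent, with a median log2 difference of 1.43, against -0.67 for the negative ones. Over all genes tested, called or not, 7054 differences were above 0 and 8429 below. In their medians, both called sets were carried by the NoCycW5 cows. Over the 772 positive genes the median log2 change from week 5 to week 9 was 1.37 in the NoCycW5 cows and -0.03 in the CycW5 cows, and over the 438 negative genes it was -0.56 and 0.06. Read across the groups in place of the weeks, the same positive genes had a median log2 difference between CycW5 and NoCycW5 cows of 1.37 at week 5, when 4119 genes were called between the groups (26.6%), and 0.02 at week 9, when 1 gene was called (0.00646%) and 992 had an unadjusted P under 0.05. Tested within each group, the change from week 5 to week 9 was called for 5533 genes (35.7%) in the NoCycW5 cows and for 7 genes (0.0452%) in the CycW5 cows, 2 higher (0.0129%) and 5 lower (0.0323%) at week 9, where 2204 genes had an unadjusted P under 0.05. The latter count depended on the method and was 243 with DESeq2, 0 with limma-voom and 3181 once library quality weights were added to limma-voom. Across all genes tested the changes of the groups, which share no libraries, had a Pearson correlation of 0.2 and a Spearman correlation of 0.235. Genes are not independent replicates, so no test was made of these correlations.

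**Figure D1:**
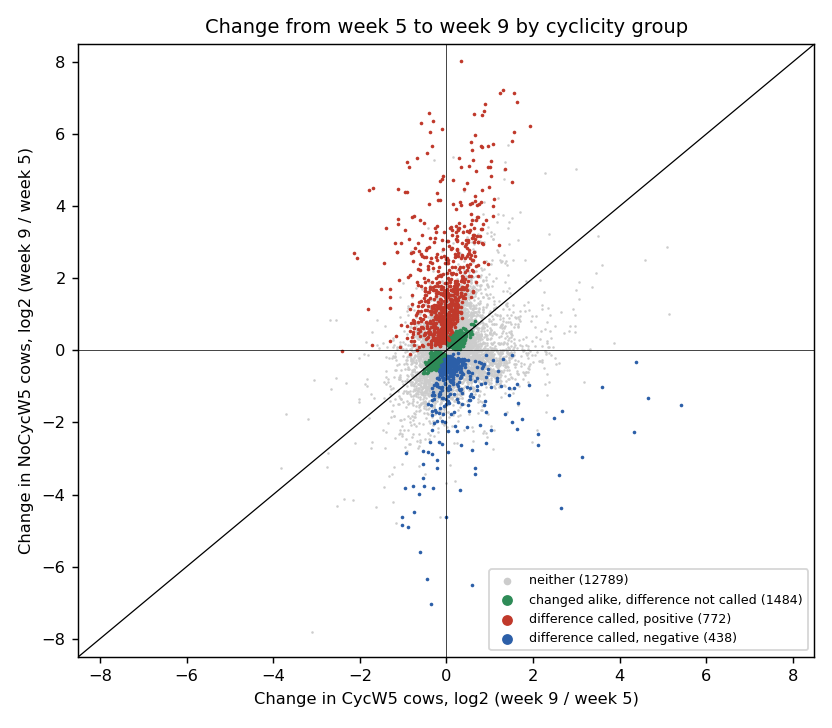
Each point is 1 of the 15483 genes, with its log2 change from week 5 to week 9 in the CycW5 cows on the horizontal axis and in the NoCycW5 cows on the vertical axis, and the diagonal marks equal changes. The 772 positive and 438 negative genes had median changes of -0.03 and 0.06 in the CycW5 cows, although some of them changed more. The 1484 genes that changed alike and were not called for the difference lie close to the origin along the diagonal.

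Some libraries stood apart from their group, and the counts depended on them. Among the CycW5 libraries of week 5, replicate 6 had the lowest abundance of many of the genes described below, near the NoCycW5 libraries of that week. The number of genes called for the difference was 1963 without this library. It was 2130 and 1979 without replicates 4 and 8 of the NoCycW5 libraries of week 9, 804 without replicate 1 of the CycW5 libraries of week 5, and 795 without replicate 5 of the CycW5 libraries of week 9. All 1210 genes were also called without replicate 6 of the CycW5 libraries of week 5 and without each of replicates 4 and 8 of the NoCycW5 libraries of week 9, and 788 of them without replicate 5 of the CycW5 libraries of week 9. Some week 9 libraries also had levels of single genes like those of the NoCycW5 cows at week 5. For ADAM12 that week 5 range was 0.628 to 10.9 CPM. At week 9, replicates 4 and 8 of the NoCycW5 cows had 4.02 and 2 CPM, and replicates 5 and 6 of the CycW5 cows 4.79 and 4.23 CPM. For ACSL3 (36.8 to 83.1 CPM), replicate 5 of the CycW5 cows lay outside (102 CPM), and the others inside (74.8, 46.6 and 72.7 CPM).

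Gene functions were described with lists of genes matched by symbol. Symbols could be paired only for genes that the study had itself called on part of these libraries, so 2203 of the tested genes carry a symbol and the lists hold only part of each pathway. Of these 2203 genes, 625 were called for the difference (28.4%), 489 positive (22.2%) and 136 negative (6.17%), and that share is the background for the lists, whose direction was in part fixed by how the genes were chosen.

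The epithelial marker genes that could be matched moved with the difference. Only genes that the study had called could be matched, so their shared direction was in part fixed by how they were chosen. Of a list of 20 epithelial markers, 8 could be matched and tested, all 8 had a positive difference, and 6 were called (KRT8, CLDN3, CLDN4, CLDN7, ST14 and RAB25, but neither EPCAM nor GRHL2). Their summed abundance ranged from 326 to 670 CPM in the NoCycW5 cows at week 5, from 574 to 1939 CPM in the same group at week 9, from 629 to 1871 CPM in the CycW5 cows at week 5 and from 546 to 1650 CPM at week 9. The NoCycW5 libraries of week 5 thus had the lowest range, which overlapped the lower end of each of the others. EPCAM, a general epithelial adhesion molecule, had a difference of 0.70 ± 0.34 (BH P = 0.174), against 0.66 for KRT8, which was called. Of 12 endothelial markers, 5 were tested, all 5 had a negative difference and 1 was called (20%). This was VWF (-0.99 ± 0.28, BH P = 0.0223), a call lost when CycNoP4 libraries were counted as CycW5. Of 15 markers of stromal fibroblasts, PDGFRA (-0.12 ± 0.23, BH P = 0.775) and MEOX1, described below, were tested. Of 12 markers of B and plasma cells, CR2 and FCRLA were tested and neither was called. No symbol was paired for the markers of ciliated cells, smooth muscle, T and NK cells, macrophages, neutrophils, mast cells or erythrocytes. In bulk tissue fewer cells of a type and less RNA per cell cannot be told apart, and the part of tissue composition in the results below was not tested.

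The most uniform positive group was cholesterol synthesis and uptake. Of its 18 tested members, 17 were called and positive (94.4%) and none was negative, with a median difference of 1.30, against -0.04 over all genes tested and 0.25 over all genes with a symbol. The median change was 1.501 in the NoCycW5 cows and 0.09 in the CycW5 cows. The called genes covered the pathway from its early steps (HMGCS1) through the isoprenoid steps (PMVK, MVD, IDI1) and squalene formation (FDFT1, SQLE) to the sterol ring (LSS, CYP51A1, MSMO1, NSDHL, TM7SF2, DHCR7), and included INSIG1, which restrains the pathway when sterols are abundant. NPC1, which releases cholesterol from the lysosome, and ABCG1, which exports it, were also positive. STARD4, a sterol carrier, was the member not called (0.52, BH P = 0.117). With limma-voom the call of NPC1 was lost.

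FDFT1 (ENSBTAG00000012432), which forms squalene, had 54.6, 74.4 and 93.3 CPM (lowest, median and highest library) in the NoCycW5 cows at week 5 and 70.7, 284 and 412 CPM at week 9. In the CycW5 cows it had 93.6, 216 and 295 CPM at week 5 and 117, 259 and 319 CPM at week 9. All CycW5 libraries of both weeks were above the highest NoCycW5 library of week 5, and 2 of the NoCycW5 libraries of week 9 remained in the range of week 5. The difference was 1.60 ± 0.30 (BH P = 0.00116). LSS, which closes the sterol ring, differed less (0.94 ± 0.20, BH P = 0.00366). Summed over the 18 members, abundance in the NoCycW5 cows was 738 ± 115 CPM at week 5 (SD, n = 12), against 2264 ± 893 CPM at week 9 (SD, n = 11). In the CycW5 cows it was 1758 ± 559 CPM and 1972 ± 545 CPM (SD, n = 10 each).

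Genes of the apical brush border and endocytosis had the largest median difference among the lists with 3 or more tested members, 2.40, with median changes of 1.89 in the NoCycW5 cows and 0.01 in the CycW5 cows. All 19 tested members had a positive difference and 12 were called (63.2%), or 7 when CycNoP4 libraries were counted as CycW5. LRP2 encodes megalin, an endocytic receptor for many luminal proteins. It had 1.02, 3.62 and 38.8 CPM in the NoCycW5 cows at week 5 and 9.77, 793 and 1524 CPM at week 9, and 3.53, 607 and 938 CPM and 37.2, 803 and 1832 CPM in the CycW5 cows. The NoCycW5 libraries of week 5 had the lowest median, and each of the other 3 groups held at least 1 library within their range. The difference was 5.93 ± 0.99 (BH P = 0.000602).

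PDZK1, a scaffold that anchors transporters at the apical membrane, had medians of 13.6 and 219 CPM at weeks 5 and 9 in the NoCycW5 cows and 270 and 208 CPM in the CycW5 cows (4.52 ± 0.75, BH P = 0.000602). PLLP (ENSBTAG00000011700), plasmolipin, an apical membrane protein, went from 0.511, 1.07 and 2.71 CPM to 2.73, 13 and 25.6 CPM in the NoCycW5 cows, and from 1.49, 31.6 and 97.7 CPM to 4.18, 12.9 and 45.8 CPM in the CycW5 cows. The NoCycW5 libraries of the weeks did not overlap, and the fitted change in the CycW5 cows was -0.96 (BH P = 0.3). The genes ENPP3, ENPP4 and ENPP5 of the ectonucleotide phosphodiesterases, which cleave extracellular nucleotides and related substrates, were positive. ENPP5 (ENSBTAG00000015829) had 8.94, 15.9 and 35.2 CPM and 36.2, 93.5 and 234 CPM in the NoCycW5 cows, without overlap between the weeks, and 17.3, 103 and 215 CPM and 34.8, 103 and 158 CPM in the CycW5 cows (2.72 ± 0.42, BH P = 0.000331). ENPP3 was less certain (2.40 ± 0.70, BH P = 0.0296), and its call was lost with CycNoP4 libraries as CycW5 and without either of 2 single libraries, replicate 1 of the CycW5 cows at week 5 and replicate 5 of the NoCycW5 cows at week 9. EZR, ANKS4B, MEP1B and PROM2 were among the others called, while VIL1, MYO1A, PLS1, ALPL, PODXL, STX3 and CLTC were not. RAB25, an epithelial trafficking GTPase, is both in this list and among the epithelial markers. It had 10.8 to 22.3 CPM in the NoCycW5 cows at week 5, below every NoCycW5 library of week 9 (22.4 to 49.1 CPM) and every CycW5 library of week 5 (29.7 to 59 CPM), and the difference was 1.12 ± 0.24 (BH P = 0.00382).

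**Figure D2:**
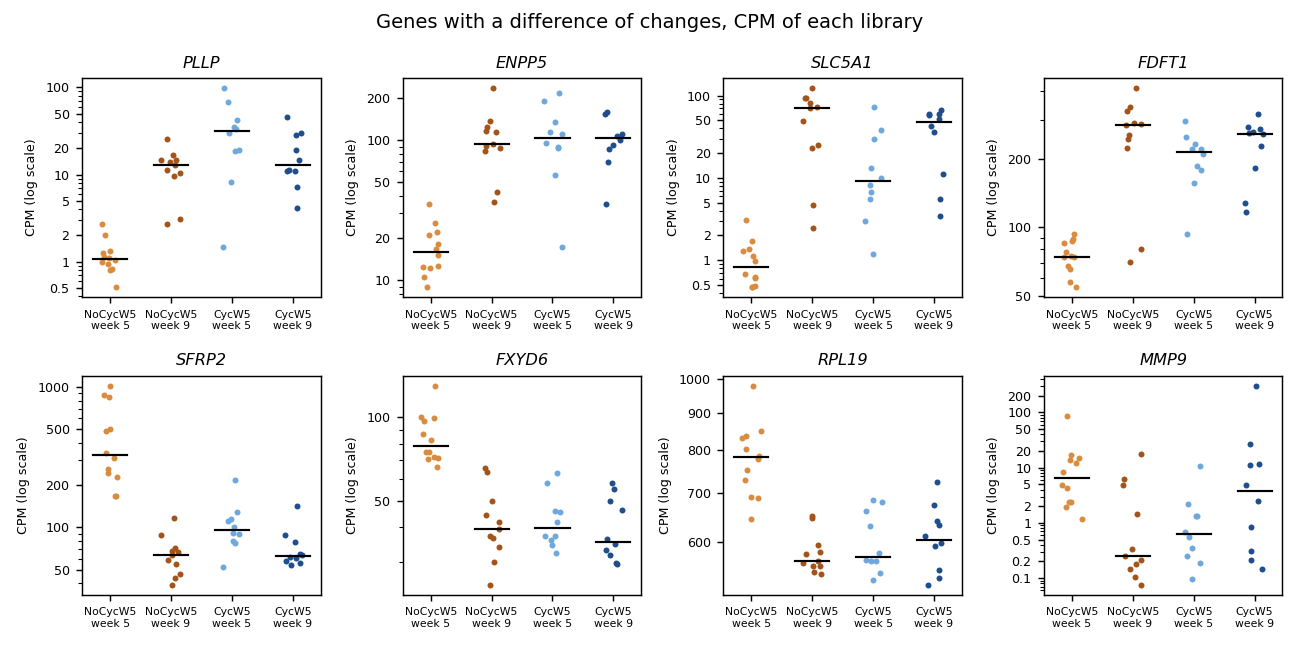
Each point is 1 library, with its CPM on a logarithmic axis for 8 genes called for the difference of changes, and the bars are group medians. In PLLP, ENPP5, SLC5A1 and FDFT1 the NoCycW5 libraries of week 5 lie below the medians of the other 3 groups, in SFRP2, FXYD6 and RPL19 they lie above them, and in MMP9 the CycW5 libraries of week 9 spread from 0.149 to 299 CPM.

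Epithelial junctions, polarity and adhesion had a positive difference in 24 of 28 tested members, and 13 were called, all positive (46.4%), with a median difference of 0.98. The number called was 8 with limma-voom. Of the 28, 5 are also epithelial markers. Among the tight junction proteins, CLDN1 had medians of 41.9 and 102 CPM at weeks 5 and 9 in the NoCycW5 cows and 179 and 110 CPM in the CycW5 cows (1.98 ± 0.37, BH P = 0.00134). CLDN7 had 33.6, 57.5 and 88.2 CPM in the NoCycW5 cows at week 5, below all CycW5 libraries of that week (99.3, 217 and 429 CPM), and 65.4, 188 and 286 CPM at week 9 (2.01 ± 0.34, BH P = 0.000602). CLDN4 (2.35 ± 0.68, BH P = 0.0288) lost its call with limma-voom, with or without library quality weights, and without each of 3 single libraries (replicates 2 and 10 of the CycW5 cows at week 5 and replicate 9 of the NoCycW5 cows at week 9). ITGB4, the integrin of hemidesmosomes, had medians of 81.4 and 285 CPM in the NoCycW5 cows and 404 and 308 CPM in the CycW5 cows (1.84 ± 0.35, BH P = 0.00127). CTNNB1, CLDN3, CLDN8, TJP3, CXADR, MPP5, PKP3, ITGA6 and OVOL2 made up the rest of the called genes. NECTIN2, another adhesion molecule, changed alike in both groups.

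Transporters of nutrients were positive or not called. Among amino acid transporters 4 of 10 tested members were called and positive (40%), and among transporters of sugars, vitamins, metals and anions 7 of 20 (35%). Of all genes with a symbol 28.4% were called, 22.2% positive and 6.17% negative, so these shares were not far above the background. The median differences of the lists were 0.61 and 0.33, against 0.25 over all genes with a symbol. SLC5A1 (ENSBTAG00000012851), the sodium-coupled glucose transporter, had 0.474, 0.828 and 3.11 CPM in the NoCycW5 cows at week 5 and 2.44, 70.6 and 122 CPM at week 9, a change of 5.73. In the CycW5 cows it had 1.19, 9.1 and 72.2 CPM at week 5 and 3.44, 47.1 and 66.5 CPM at week 9. The CycW5 cows were thus intermediate at week 5, and the difference was 4.66 ± 0.84 (BH P = 0.00087), a call lost with limma-voom. SLC1A1, a transporter of glutamate and aspartate, had medians of 78.7 and 1616 CPM in the NoCycW5 cows and 663 and 1738 CPM in the CycW5 cows (2.98 ± 0.67, BH P = 0.00552). SLC23A1, which carries vitamin C, had medians of 5.36 and 45.5 CPM in the NoCycW5 cows and 44.7 and 50 CPM in the CycW5 cows (2.71 ± 0.48, BH P = 0.000682). SLC31A2, a copper transporter, showed a difference of 2.48 ± 0.47 (BH P = 0.00138). SLC38A9, an amino acid transporter and sensor of the lysosome, changed alike, with medians of 17.3 and 30.1 CPM in the NoCycW5 cows and 23.1 and 27.9 CPM in the CycW5 cows.

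Ion channels and pumps went both ways, with 8 of 23 tested members positive and 3 negative (47.8% called). The cation channels of endosomes and lysosomes were positive. MCOLN3 had 1.9, 4.06 and 14.8 CPM and 23, 232 and 330 CPM at weeks 5 and 9 in the NoCycW5 cows, which did not overlap, and 12.8, 93.7 and 351 CPM and 16.6, 176 and 641 CPM in the CycW5 cows (4.23 ± 0.73, BH P = 0.000682). TPCN1 had a difference of 1.57 ± 0.32 (BH P = 0.00248, not called with CycNoP4 libraries as CycW5) and MCOLN2 was also called. The negative members were FXYD6, a regulator of the sodium pump, the chloride channel gene ANO1, and CLCA1. FXYD6 had 66.3, 79 and 130 CPM in the NoCycW5 cows at week 5, above every library of the other 3 groups, which reached 65.6 CPM at most (-0.92 ± 0.22, BH P = 0.00699). ANO1 had medians of 24.3 and 9.06 CPM in the NoCycW5 cows and 10.2 and 9.95 CPM in the CycW5 cows (-1.51 ± 0.33, BH P = 0.00402), a call lost with CycNoP4 libraries counted as CycW5. CLCA1 rested on few libraries: its medians were 0.424, 0.305, 0.334 and 0.438 CPM in the NoCycW5 cows at weeks 5 and 9 and the CycW5 cows at weeks 5 and 9, while its highest library of the first group had 109 CPM, and the call was lost with DESeq2 or limma-voom, and also where CycNoP4 libraries were counted as CycW5.

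Of 9 lysosomal genes 5 were called and positive (55.6%). GM2A, the activator of ganglioside breakdown, had 21, 28.2 and 45.2 CPM in the NoCycW5 cows at week 5 and medians of 248, 291 and 230 CPM in the NoCycW5 cows at week 9 and the CycW5 cows at weeks 5 and 9 (3.29 ± 0.56, BH P = 0.000602). ASAH1, which hydrolyzes ceramide, changed alike and is described below. In fatty acid and lipid droplet metabolism 9 of 23 tested members were positive and 1 was negative (43.5% called). ELOVL6, which elongates fatty acids, had medians of 28.5 and 92.2 CPM in the NoCycW5 cows and 88.7 and 89.3 CPM in the CycW5 cows (1.64 ± 0.32, BH P = 0.00138). SLC27A6, a fatty acid transporter, had a difference of 4.14 ± 0.95 (BH P = 0.0061) that was not called with limma-voom. PLIN4, a lipid droplet coat protein, was the negative member (-3.82 ± 0.96, BH P = 0.0117), with medians of 3.6 and 0.346 CPM in the NoCycW5 cows and 2.31 and 0.717 CPM in the CycW5 cows, and it too was not called with limma-voom.

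**Figure D3:**
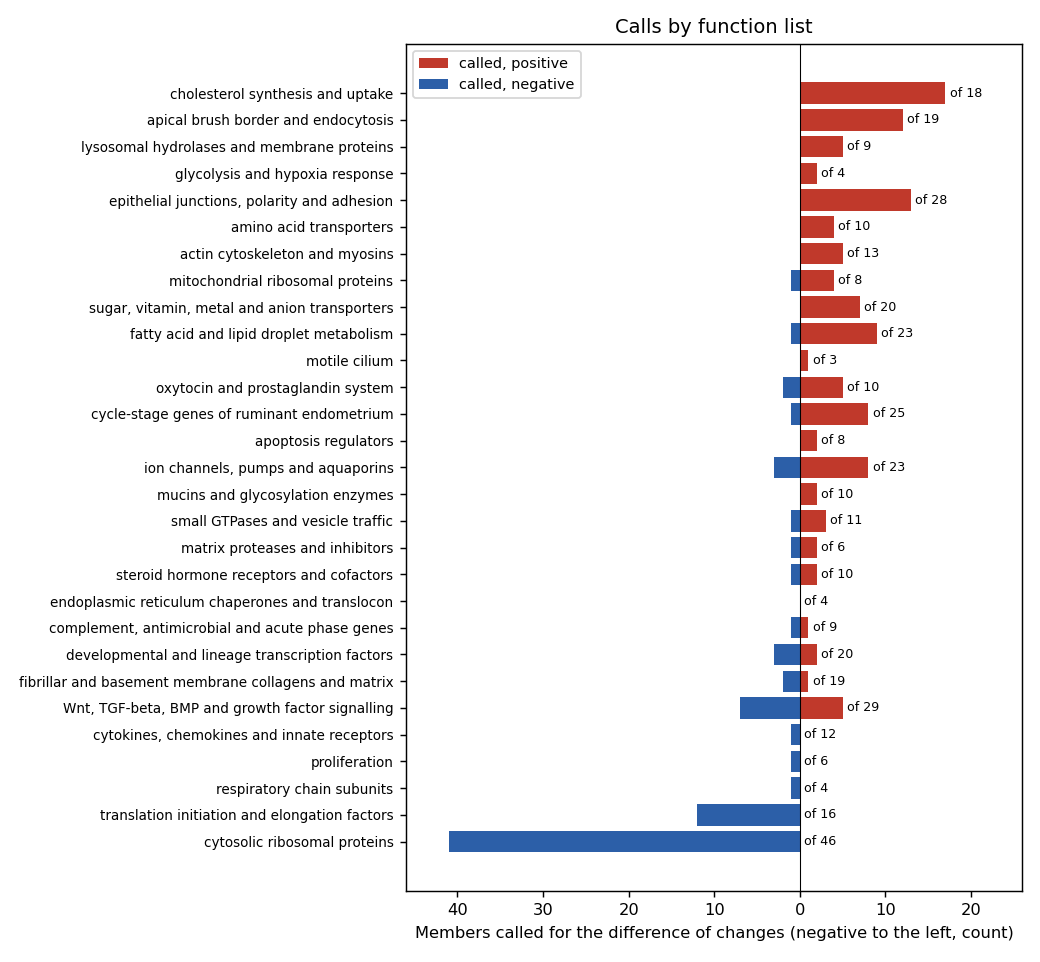
Bars give, for each function list with at least 3 tested members, the number of members called for the difference of changes, positive to the right and negative to the left, with the number tested beside them. Cholesterol synthesis (17 of 18) and the apical brush border (12 of 19) are called in the positive direction only, and cytosolic ribosomal proteins (41 of 46) and translation factors (12 of 16) in the negative direction only.

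In the oxytocin and prostaglandin system 5 of 10 tested members were positive and 2 were negative (70% called). HPGD, which inactivates prostaglandins, had 13.3, 27.3 and 64.3 CPM in the NoCycW5 cows at week 5 and 22.4, 580 and 752 CPM at week 9, and 12.1, 369 and 627 CPM and 17.1, 560 and 1051 CPM in the CycW5 cows. Each of the 3 groups with high medians held at least 1 library below the highest NoCycW5 library of week 5. The difference was 3.32 ± 0.66 (BH P = 0.00199). ALOX12, an arachidonate lipoxygenase, and the acyl-CoA synthetases ACSL3 and ACSL4, which activate arachidonate and other fatty acids, were positive (1.496 ± 0.42, 1.13 ± 0.31 and 1.70 ± 0.53, with BH P of 0.022, 0.0222 and 0.0411), and PLA2G4A, which frees arachidonate from membranes, was called as well. PTGES, a prostaglandin E synthase, was negative, with medians of 9.87 and 2.12 CPM in the NoCycW5 cows and 2.83 and 2.59 CPM in the CycW5 cows (-2.61 ± 0.63, BH P = 0.0091, not called with CycNoP4 libraries as CycW5), and so was PTGFR, the receptor of prostaglandin F2α (BH P = 0.0487), with medians of 4.82, 0.0762, 0.646 and 0.28 CPM in the NoCycW5 cows at weeks 5 and 9 and the CycW5 cows at weeks 5 and 9, for which no fold is given because some libraries had a count of 0. OXTR, the oxytocin receptor, had 79.5, 112 and 224 CPM and 2.85, 9.08 and 165 CPM at weeks 5 and 9 in the NoCycW5 cows, and 5.2, 43.6 and 151 CPM and 2.67, 7.01 and 179 CPM in the CycW5 cows. Its libraries of the last 3 groups spread widely, and the difference of -1.49 ± 0.97 was not called (BH P = 0.317). The calls of ACSL4, PTGFR and WNT4 were lost with CycNoP4 libraries as CycW5. The call of ACSL4 was lost in 21 of the 43 fits that left out 1 library and that of PTGFR in 25. The number called in the list was 4 without each of replicates 5 and 6 of the CycW5 cows at week 9 and replicates 2 and 9 of the NoCycW5 cows at week 9.

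Steroid receptors showed no common direction. ESR2, the estrogen receptor β gene, was positive, with 0.253, 1.82 and 5.07 CPM and 1.65, 11.2 and 22.9 CPM in the NoCycW5 cows and 3.73, 13.7 and 22.7 CPM and 2.46, 12.4 and 28.1 CPM in the CycW5 cows (2.45 ± 0.55, BH P = 0.00552). ESR1, the estrogen receptor α gene, had medians of 128 and 66.3 CPM in the NoCycW5 cows and 106 and 69.6 CPM in the CycW5 cows, and its difference of -0.17 ± 0.34 was not called (BH P = 0.778) and changed sign when CycNoP4 libraries were counted as CycW5 (0.05). FKBP5, a chaperone of steroid receptors induced by their ligands, was positive (1.54 ± 0.34, BH P = 0.00459), and the retinoic acid receptor RARA was negative (-0.56 ± 0.16, BH P = 0.0288). Both calls were lost when CycNoP4 libraries were counted as CycW5, and that of RARA also without each of replicates 1 and 10 of the CycW5 cows at week 5 and replicate 5 at week 9. PGR was not analysed here, as no identifier was paired with it.

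Cytosolic ribosomal proteins formed the most uniform negative group. All 46 tested members had a negative difference and 41 were called (89.1%), with a median of -0.47 and median changes of -0.51 in the NoCycW5 cows and -0.02 in the CycW5 cows. The sizes were small but the spread was narrow: RPL19 (ENSBTAG00000002060) had 644, 782 and 978 CPM in the NoCycW5 cows at week 5, 542, 565 and 651 CPM at week 9, 531, 573 and 684 CPM in the CycW5 cows at week 5 and 524, 604 and 723 CPM at week 9 (-0.45 ± 0.09, BH P = 0.00202). RPS3 had a median of 1340 CPM in the first group and of 903, 972 and 973 CPM in the others (-0.50 ± 0.11, BH P = 0.00362). RPL29, RPL34 and RPS28 were among the 10 negative genes of smallest BH P that carry a symbol as well. The members not called were RPL35, RPS9, RPS20, RPS21 and 1 of 2 identifiers for RPS6. Ribosomal proteins have near-identical copies in the genome among which counting may have divided the reads, which leaves the value of any 1 of them uncertain. The number called was 21 when CycNoP4 libraries were counted as CycW5.

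Translation factors followed: 12 of 16 tested members were negative and called (75%), with a median of -0.41. They included 5 subunits of the initiation factor eIF3, of which EIF3F (-0.47 ± 0.11, BH P = 0.00804) and EIF3H (-0.40 ± 0.10, BH P = 0.0124) had the smallest BH P, the elongation factors EEF1B2 and EEF2, and NACA and BTF3, which together bind nascent chains at the ribosome (BTF3, -0.42 ± 0.10, BH P = 0.00597, not called with CycNoP4 libraries as CycW5). The number called was 4 with CycNoP4 libraries counted as CycW5 and 6 without replicate 5 of the CycW5 cows at week 9, and it was 7 without replicate 10 of the CycW5 cows at week 5 or replicate 9 of the NoCycW5 cows at week 9. Of 8 ribosomal proteins of the mitochondrion, 4 were called positive and 1 negative (62.5% called), with a median difference of 0.21. MRPS36 had medians of 30 and 181 CPM in the NoCycW5 cows and 485 and 153 CPM in the CycW5 cows (3.88 ± 0.67, BH P = 0.000682), MRPL19 36.1 and 85 CPM and 91.8 and 86.4 CPM (1.10 ± 0.26, BH P = 0.00872), and MRPS26 was negative (-0.41 ± 0.12, BH P = 0.0308), a call lost with CycNoP4 libraries as CycW5 and without replicate 5 or 6 of the CycW5 cows at week 9. MRPL11 and MRPS18B changed alike. In this list 3 members were called with limma-voom and 3 without replicate 5 of the CycW5 cows at week 9.

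**Figure D4:**
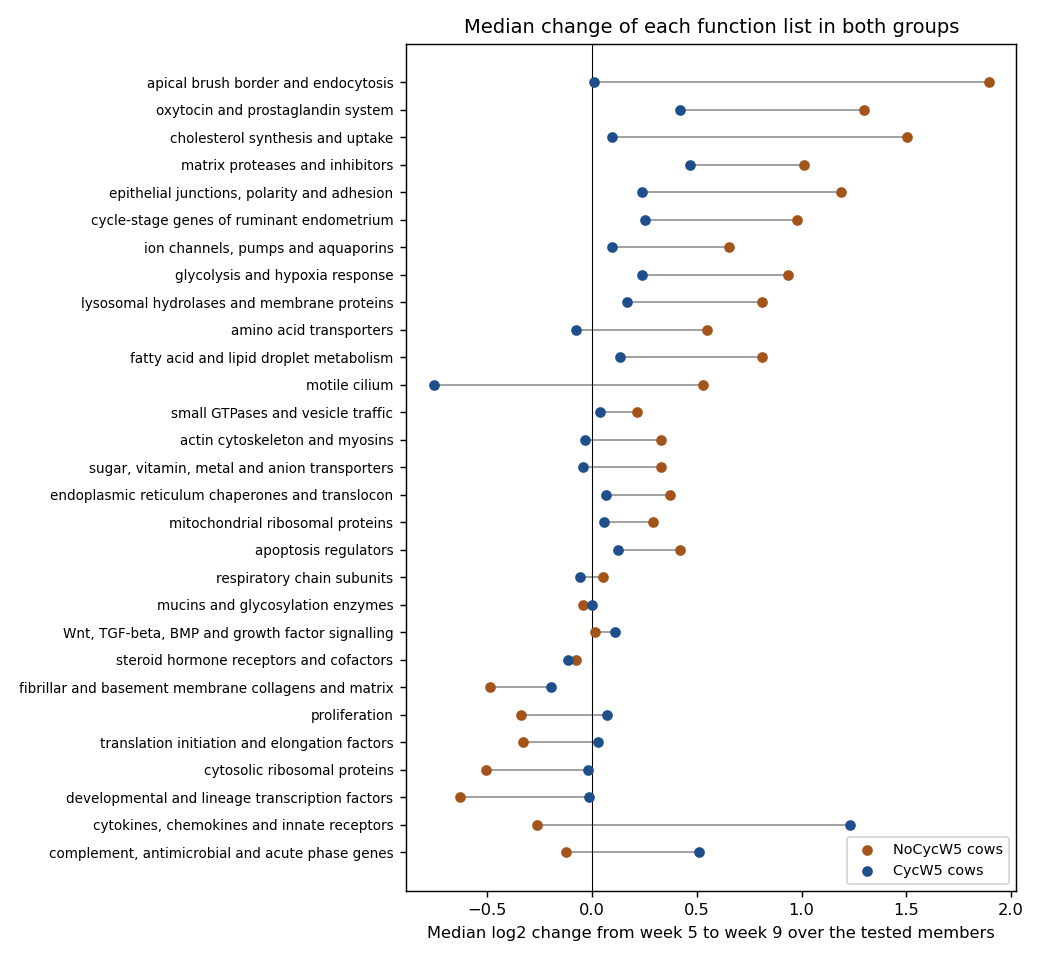
Points give the median log2 change from week 5 to week 9 over the tested members of each function list with at least 3 of them, in the NoCycW5 cows and in the CycW5 cows, ordered by the median difference. The CycW5 medians range from -0.76 for the 3 genes of the motile cilium to 1.23 for cytokines, while the NoCycW5 medians range from -0.63 for developmental transcription factors to 1.89 for the apical brush border.

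Signalling genes were split by member. Of 29 tested genes of Wnt, TGF-β, BMP and growth factor signalling 5 were positive and 7 negative (41.4% called). SFRP2 (ENSBTAG00000018563), a secreted modulator of Wnt signals, had 166, 327 and 1015 CPM in the NoCycW5 cows at week 5, above all NoCycW5 libraries of week 9 (39.1, 63.1 and 117 CPM), and 51.9, 95.9 and 216 CPM and 53.8, 62.5 and 143 CPM in the CycW5 cows (-2.25 ± 0.39, BH P = 0.000682). The Wnt ligands were not alike among themselves. WNT11 was positive (3.52 ± 0.63, BH P = 0.000774), as was WNT16 (1.24 ± 0.35, BH P = 0.023, not called with limma-voom or with CycNoP4 libraries as CycW5), but WNT4 was negative (-1.88 ± 0.61, BH P = 0.0487), with medians of 6.02 and 1.25 CPM in the NoCycW5 cows and 1.31 and 1.33 CPM in the CycW5 cows, and its call was lost in 31 of the 43 fits that left out 1 library. The Wnt receptor FZD5 was positive (2.55 ± 0.52, BH P = 0.0024). FGFR1, a fibroblast growth factor receptor, and EDNRA, a receptor of endothelin, were negative (-1.03 ± 0.25 and -0.89 ± 0.23, with BH P of 0.00958 and 0.0153). Outside this list, FST, follistatin, which binds activin, had medians of 8.07 and 102 CPM in the NoCycW5 cows and 61.8 and 77.2 CPM in the CycW5 cows (2.91 ± 0.67, BH P = 0.00631, not called with limma-voom).

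Among 19 tested collagens and matrix genes 1 was positive and 2 negative (15.8% called), or 5 in all without replicate 6 of the CycW5 cows at week 5 or replicate 8 of the NoCycW5 cows at week 9. P4HA3, a subunit of the enzyme that hydroxylates collagen, was positive (2.24 ± 0.50, BH P = 0.00448), and the stromal matrix genes COL14A1 (-1.45 ± 0.39, BH P = 0.0187) and FBLN1 (-0.78 ± 0.22, BH P = 0.0213, not called with CycNoP4 libraries as CycW5) were negative. Of 6 matrix proteases and inhibitors tested, 2 were positive and 1 negative (50% called). The metalloprotease ADAM12 was positive (3.48 ± 0.69, BH P = 0.00179). MMP9, a gelatinase of leukocytes and other cells, was negative (-6.60 ± 1.58, BH P = 0.00786). Its medians were 6.49 and 0.252 CPM in the NoCycW5 cows and 0.621 and 3.7 CPM in the CycW5 cows, and replicate 6 of the CycW5 cows at week 9 decided the call, which was lost without that library, where the difference was -4.14. CHI3L1, a secreted glycoprotein of inflamed tissue, depended on the same library: it had 903 CPM there against a group median of 2.36 CPM, and its difference of -4.72 ± 1.35 became -1.71 and was not called without it. MEOX1, a transcription factor of the mesoderm, lost its call without that library too (-3.48 against -1.995). The calls of MMP9, CHI3L1 and MEOX1 were also lost with limma-voom.

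Immune genes had few calls in these lists. Of 12 tested cytokines, chemokines and innate receptors, 11 had a negative difference, with a median of -1.37 over the 12. The median change was -0.265 in the NoCycW5 cows and 1.23 in the CycW5 cows. At week 9 their summed abundance had medians of 52.9 and 53.6 CPM in the NoCycW5 and CycW5 cows. The highest libraries had 608 and 893 CPM. Among the 12, 1 was called (8.33%), or 2 without replicate 5 of the CycW5 cows at week 5 and 3 without replicate 4 of the NoCycW5 cows at week 9. This was CCL21, a chemokine that attracts lymphocytes and dendritic cells, with 0.0408, 1.64 and 18.8 CPM in the NoCycW5 cows at week 5 and at most 0.111 CPM in any library of that group at week 9, when its median was 0, against medians of 0.854 and 0.407 CPM in the CycW5 cows (BH P = 0.0026, not called with limma-voom). Because its week 9 level was at or near a count of 0, no fold is given. Apoptosis regulators held 2 called genes among 8 (25%), near the 28.4% called among all genes with a symbol. They were the survival factor BCL2L1 (0.80 ± 0.20, BH P = 0.0116) and AIFM1, a mitochondrial flavoprotein that can promote cell death (0.61 ± 0.15, BH P = 0.00786). BCL2 (0.76 ± 0.33, BH P = 0.13) and the death receptors TNFRSF1A (-0.31 ± 0.13, BH P = 0.127) and TNFRSF25 (-0.65 ± 0.26, BH P = 0.102) were not called with edgeR and were called with limma-voom and library quality weights. In the transcription factor list 2 of 20 tested members were positive and 3 negative (25% called), also near that share. PAX2 (1.54 ± 0.42) and SOX17 (1.44 ± 0.39) were positive, and MEOX2 (-1.05 ± 0.34) and HOXC9 (-1.30 ± 0.42) were among the negative, with BH P of 0.0209, 0.0186, 0.0481 and 0.0469. The calls of PAX2 and SOX17 were lost with CycNoP4 libraries as CycW5. Those of MEOX2 and HOXC9 were lost in 26 and 27 of the 43 fits that left out 1 library. No member was called among 4 genes of endoplasmic reticulum chaperones, where EDEM1 had the smallest P (0.35 ± 0.14, BH P = 0.0988), or for the 1 proteasome subunit tested, PSMA2 (0.20 ± 0.17, BH P = 0.467).

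A BH P above 0.05 does not show that the groups changed alike, so genes that changed alike were defined by an interval. They had to be called for the change averaged over both groups (4417 genes, 28.5%), and the 95% interval of their difference of changes had to lie within a 1.5-fold difference either way. This held for 1519 genes (9.81%), 735 higher (4.75%) and 784 lower (5.06%) at week 9, and for 191 of the genes with a symbol (8.67%). In 22 of the 1519 the fitted changes of the groups had opposite signs. Their changes were small, with median log2 changes of 0.28 and 0.18 in the NoCycW5 and CycW5 cows over the genes higher at week 9, and -0.27 and -0.13 over the genes lower at week 9. The margin, 0.585 on the log2 scale, was wider than these medians. A gene with little change in the CycW5 cows could therefore meet this definition. Of the 1519 genes, 35 were also called for the difference, and 419 had an unadjusted P under 0.05 for the change in each group. EIF3G, EIF3K and NDUFB10 were among the former, and the call of NDUFB10 for the difference was lost with CycNoP4 libraries as CycW5 and without replicate 6 of the CycW5 cows at week 9 or replicate 9 at week 5.

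A second definition, chosen after the values were seen, asked that the interval of the difference lie within the size of the averaged change itself, which allows a wider interval where the change is larger. It held for 82 genes, 52 higher and 30 lower at week 9, of which 27 carry a symbol. Of the 82, 48 also met the first definition and 34 did not, among them FAS, PDE3B, PLAT, MREG, GPC3 and TUBA1A. The count moved with single CycW5 libraries: it was 52, 53, 126 and 162 without replicates 4, 7, 8 and 10 of week 5, and 146 without replicate 5 of week 9. FAS (ENSBTAG00000010785), a death receptor, had 16.5, 28.8 and 38.6 CPM in the NoCycW5 cows at week 5 and 40.6, 60 and 76.7 CPM at week 9, without overlap, and 25, 34 and 61.6 CPM and 28.8, 61.8 and 99.9 CPM in the CycW5 cows. Its changes were 1.08 ± 0.17 and 0.72 ± 0.19, and the difference was 0.36 (95% interval -0.15 to 0.87). PDE3B (ENSBTAG00000005218), which degrades cyclic AMP, had changes of 1.16 ± 0.23 and 1.11 ± 0.25, a difference of 0.05 (-0.62 to 0.73). PLAT, tissue plasminogen activator, had medians of 418 and 730 CPM in the NoCycW5 cows and 466 and 640 CPM in the CycW5 cows. ASAH1, acid ceramidase, had medians of 131 and 219 CPM and of 133 and 259 CPM, with changes of 0.81 ± 0.15 and 0.66 ± 0.16 and a difference of 0.15 (-0.29 to 0.58). SGMS1, a sphingomyelin synthase, changed by 0.36 and 0.32. MREG, RASGEF1B, STC2, PARN and PTP4A2 were also higher at week 9 in both groups.

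Among genes lower at week 9 in both groups, GPC3, a cell surface proteoglycan, had the second largest averaged change of those with a symbol, with medians of 11.1 and 1.73 CPM in the NoCycW5 cows and 7.57 and 2.11 CPM in the CycW5 cows and changes of -2.54 ± 0.43 and -1.72 ± 0.44. It met only the second definition. Over the fits that left out 1 library, its difference ran from -1.25 to -0.60. SST, somatostatin, had larger changes at a very low abundance (medians of 2.49 and 0.143 CPM, and 0.212 and 0.0159 CPM). TUBA1A, an α-tubulin, had medians of 248 and 97.2 CPM in the NoCycW5 cows and 193 and 89.7 CPM in the CycW5 cows, with changes of -1.18 ± 0.25 and -0.90 ± 0.27. CCDC80, a matrix protein, and PDLIM4, an actin-associated protein, changed by -0.89 and -0.80 and by -0.63 and -0.55. By the first definition MYH10, a nonmuscle myosin, and TUBB4B, a β-tubulin, were lower in both groups as well (averaged changes of -0.38 and -0.41). None of these genes was called within the CycW5 cows alone over all genes tested, so their change there rests on the interval of the difference and on the averaged change. Of the 18 tested members of the cholesterol list and the 19 of the brush border list, none changed alike by the first definition.

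**Figure D5:**
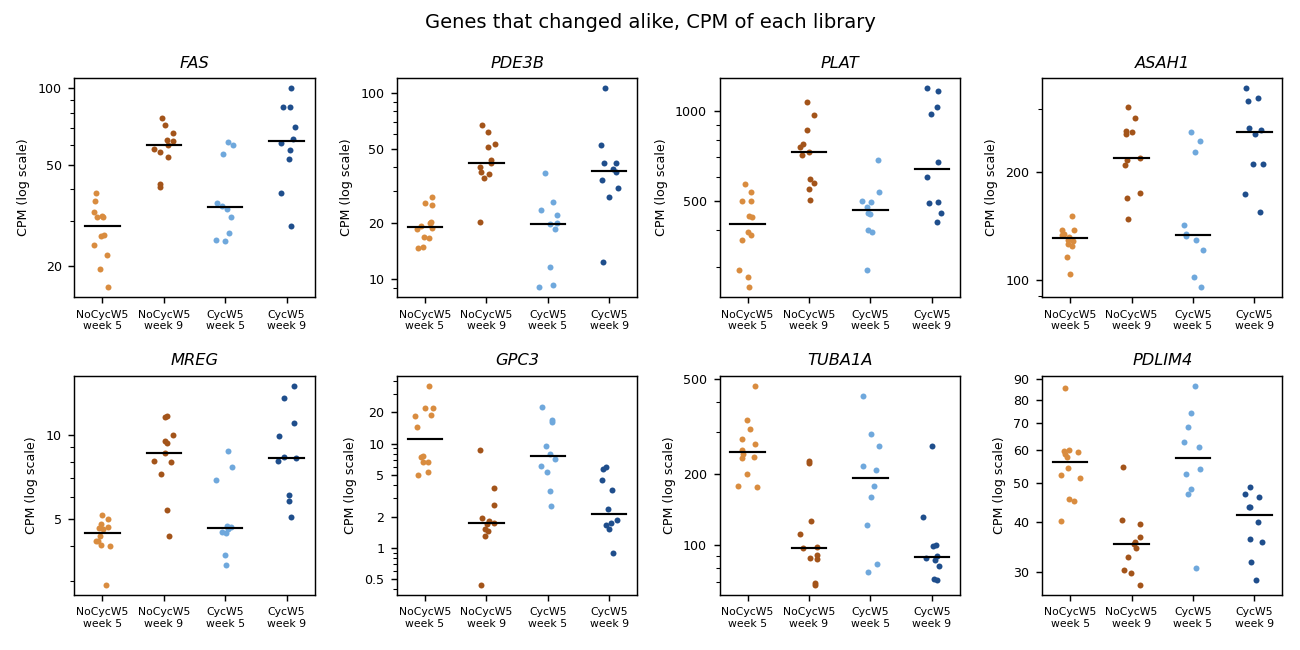
Each point is 1 library, with its CPM on a logarithmic axis for 8 genes that met the second definition, by the size of the averaged change, and the bars are group medians. FAS, PDE3B, PLAT, ASAH1 and MREG are higher and GPC3, TUBA1A and PDLIM4 are lower at week 9 in both groups, with group medians at week 5 from 4.47 and 4.64 CPM for MREG to 418 and 466 CPM for PLAT.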

How the data were processed

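Endometrial mRNA was sequenced from biopsies of the uterus. Reads were trimmed by the authors, mapped with HISAT2 to the bovine assembly UMD3.1 and, by the study's methods, counted on Ensembl genes with FeatureCounts; StringTie and edgeR are also named in the submitters' processing notes. The deposited values are raw counts for 18830 genes in 50 libraries. No pair of libraries was a repeat (mean chi-square per gene of 27.9 or more over 1225 pairs, where sampling noise gives about 1).

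Counts of 43 libraries were filtered with filterByExpr, TMM-normalized and tested by robust quasi-likelihood in edgeR 4.0.16 (R 4.3.3) on a mean for each of 4 groups, with BH adjustment over all genes tested. The cow and microbiota terms of the study's model were not fitted, because labels give neither. Alternatives used limma 3.58.1, DESeq2 1.42.0, other filters, other uses of the CycNoP4 libraries and leaving out each library.

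Symbols came from the study's supplementary tables (2321 identifiers), and list members given there only by a description were placed by it. Function lists were written from general knowledge of gene function. Members and lists were chosen with earlier results of these data known. Genes considered for naming were chosen by rule, and not all of them are described. They were, per direction, the 10 genes of smallest BH P that carry a symbol and up to 3 called members of each list. Where no member was called, the one with the smallest P was taken. Also taken, per direction, were the 10 alike genes with the largest averaged change and up to 2 per list. The marker genes and a fixed set of receptors and enzymes completed the set. Genes alike by the second definition were added after their values were seen. Other genes are named as members of a described list. A gene with more than 1 identifier was not given values. No coordinates or sequences were used, and a few genes that the rule would name are not reported here.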

Additional observations from a re-analysis of the deposited data

Results flagged for a closer look

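The difference of changes itself is a contrast between the groups that was tested directly: 1210 genes differed, 772 positively and 438 negatively.

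Single libraries lay far from the rest of their group. For the 160 genes named or considered, each group of 10 CycW5 libraries was examined for a highest or lowest library far from its nearest neighbour. Plain CPM is given below, but the gap was measured in log2 CPM. It had to take a share of the range of the group above Dixon's 95% critical value. This held in 46 of 320 cases, where chance gives about 1 in 20, and genes that vary together are not independent cases. The larger NoCycW5 groups were not examined in this way.

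Of these cases, 22 were a lowest value in replicate 6 of the CycW5 cows at week 5, given here with the next lowest library. The genes were ADAM12 (1.95 CPM against 21.2), AIFM1 (50.2 CPM against 73.8), BCL2L1 (62.2 CPM against 97.9), CAMK2B (0.099 CPM against 13.6), DYDC1 (0.132 CPM against 1.67), ELOVL6 (37.1 CPM against 72.2), ENPP3 (1.32 CPM against 8.76), ENPP4 (51.2 CPM against 222), ENPP5 (17.3 CPM against 56.8), FKBP5 (53.1 CPM against 177), GM2A (30.5 CPM against 175), HPGD (12.1 CPM against 161), MGAT3 (4.16 CPM against 10.7), MRPS36 (32.3 CPM against 235), P2RX3 (1.06 CPM against 5.94), P4HA3 (18.4 CPM against 126), PDZK1 (17 CPM against 141), PSMA2 (88.9 CPM against 106), PTP4A2 (132 CPM against 150), TPCN1 (23.4 CPM against 65.3), WNT11 (2.01 CPM against 10.6) and WNT16 (14.2 CPM against 24.6). In the same library RARA (104 CPM against 70.9) and SST (3.3 CPM against 0.311) had the highest value. The cause was not tested, and the number of genes called for the difference was 1963 without this library.

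At week 9, replicate 5 of the CycW5 cows had the lowest value of FKBP5 (58 CPM against 175), GM2A (34 CPM against 128), HPGD (17.1 CPM against 309), LRP2 (37.2 CPM against 355), MCOLN3 (16.6 CPM against 108) and SLC27A6 (3.32 CPM against 44.8), and the highest of RARA (85.7 CPM against 58.2), SFRP2 (143 CPM against 88.1) and TUBA1A (263 CPM against 131). Replicate 6 had the highest value of BUB3 (83.8 CPM against 60), CBLN3 (21.4 CPM against 6.42), CLIC1 (325 CPM against 256), EIF3G (167.5 CPM against 136), MEOX1 (22.2 CPM against 2.21), MRPS18B (35.5 CPM against 29.5) and NDUFB10 (92.8 CPM against 69.9), and the lowest of KRT8 (90.3 CPM against 142) and NT5C3B (44.4 CPM against 56.9). Replicate 2 had the highest value of ACSL3 (346 CPM against 155) and ACSL4 (628 CPM against 150) and the lowest of FGFR1 (11.7 CPM against 19.6), and replicate 4 the highest of SFN (5.25 CPM against 1.96).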

How the results depend on the processing

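No paired analysis was possible because the labels link the libraries neither to cows nor to pairs, and their numbers within a group follow the order of deposit. The genes called for the difference of changes numbered 1210, and 1848 with DESeq2, 621 with limma-voom, 3161 with limma-voom and library quality weights and 597 with CycNoP4 libraries counted as CycW5. Leaving out 1 library gave 795 to 2130. Of the 1210 genes, limma-voom also called 598, and 529 were called where CycNoP4 libraries were counted as CycW5. The change in the CycW5 cows was called for 7 genes, and for 0 with DESeq2 size factors, limma-voom, no filter or the stricter filter, 20 with all 50 libraries, 243 with DESeq2, 497 with CycNoP4 libraries counted as CycW5 and 3181 with quality weights. Between the groups at week 9 the count was 1, and 12 with DESeq2, 5 with CycNoP4 libraries counted as CycW5, and 0 with limma-voom, quality weights, either filter or all 50 libraries. Quality weights gave 8562 genes for the NoCycW5 cows, 8073 for the averaged change and 3358 alike. The alike genes numbered 2294 with CycNoP4 libraries counted as CycW5, 2606 within a 2-fold interval and 82 within the size of the averaged change, a definition chosen after seeing the data. The cause of these shifts was not tested, except that the interval definitions differ by construction.

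Of 101 genes named or considered that were called for the difference, 59 were called under all 8 alternatives and 85 without any 1 library. The direction of ESR1, which was not called, reversed to 0.0525 with CycNoP4 libraries counted as CycW5. Of the list counts, 208 stayed within 1.5 times and 40 did not. The design gave a median half-width of the 95% interval of 0.44 on the log2 scale, so 6335 of the genes tested (40.9%) had an interval within a 1.5-fold difference.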
